A study of Homo sapiens with 20 samples.

Results

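Interferon-stimulated genes are genes whose transcription rises in cells that receive an interferon, the secreted protein of antiviral defence. The set described here holds 41 of them, named by symbol and matched to the Ensembl gene identifiers of the count files. Each of the 41 matched 1 identifier among the 57820 genes in the files. All 41 were among the 18806 genes with enough fragments to test, which says nothing about how they changed.

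T47D, an established luminal breast cancer cell line with oestrogen and progesterone receptors, was sequenced after siRNA against FOXA1 (si-FOXA1), CBX3 (si-CBX3) or BRG1 (si-BRG1), or with a control siRNA (si-control). FOXA1 is a pioneer transcription factor, CBX3 encodes the heterochromatin protein HP1 gamma, and BRG1, encoded by SMARCA4, is an ATPase of the SWI/SNF chromatin remodeller. Each siRNA was measured at 6 h and 0 h of 10 nM R5020, a synthetic progestin, with 2 libraries in each of the 8 groups; 1 library without siRNA was measured at each time, and BRG1 binding without siRNA was listed at 30 and 0 min. All cells had been held in hormone-depleted serum and then without serum, although the labels of the first si-CBX3 0 h library give no protocol. The labels give neither siRNA sequences nor the time from transfection to harvest. They also do not say if a group's 2 libraries were grown apart, and the p-values therefore describe the scatter of these libraries, which may be technical.

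As background, type I and type III interferons bind receptors whose kinases JAK1 and TYK2 phosphorylate STAT proteins. STAT2 and IRF9 are subunits of the complex ISGF3, which binds the interferon-stimulated response element (ISRE) in the promoters of its targets. The targets include antiviral effectors, the ubiquitin-like modifier ISG15 and its enzymes, RNA sensors, and STAT2, IRF9 and IRF7 themselves, and many are transcribed at a basal level in epithelial cells that meet no virus.

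RefSeq promoters on GRCh38.p14, from 250 bases before to 50 bases after the gene start, were found for 33 of the 41 genes. The 5 below carry the ISRE core and are examples of different results that follow: ISG15, IFIT1 and IFI6 fell far under the FOXA1 siRNA, HERC5 rose with hormone, and GBP1 departed from the other members. Other members fell further than IFI6, whose log2 fold change in si-FOXA1 over si-control at 0 h was -3.46. Among them were IFI44L (-5.54, or -4.58 without si-control 0 h replicate 1), with the core in its window, and CMPK2 (-5.63), without it. IFI44L had only 667 fragments over all 16 libraries and was near the floor in si-FOXA1. Capitals mark each match to the ISRE core (GAAA, any 2 bases, GAAA) or its reverse complement (TTTC, any 2 bases, TTTC), read 5′ to 3′ on the strand of the gene; overlapping matches run together.
ISG15 (chr1:1013247-1013546, plus strand): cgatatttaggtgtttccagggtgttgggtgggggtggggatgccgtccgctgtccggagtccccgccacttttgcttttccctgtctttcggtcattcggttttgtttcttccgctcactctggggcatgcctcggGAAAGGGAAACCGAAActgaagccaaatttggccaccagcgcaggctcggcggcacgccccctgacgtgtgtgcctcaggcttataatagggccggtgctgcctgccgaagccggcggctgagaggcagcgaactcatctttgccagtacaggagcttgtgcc
IFIT1 (chr10:89392373-89392672, plus strand): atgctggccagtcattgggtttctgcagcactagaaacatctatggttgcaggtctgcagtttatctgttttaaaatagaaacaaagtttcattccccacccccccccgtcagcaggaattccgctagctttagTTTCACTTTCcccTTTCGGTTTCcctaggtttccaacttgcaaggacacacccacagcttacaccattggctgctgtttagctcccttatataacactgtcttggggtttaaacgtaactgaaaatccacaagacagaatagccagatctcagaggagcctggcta
IFI6 (chr1:27672143-27672442, minus strand): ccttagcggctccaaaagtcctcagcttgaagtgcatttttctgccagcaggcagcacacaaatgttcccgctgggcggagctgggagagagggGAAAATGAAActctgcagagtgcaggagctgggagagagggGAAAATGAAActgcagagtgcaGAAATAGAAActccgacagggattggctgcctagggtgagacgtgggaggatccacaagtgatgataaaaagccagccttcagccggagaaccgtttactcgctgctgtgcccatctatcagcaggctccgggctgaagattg
HERC5 (chr4:88456869-88457168, plus strand): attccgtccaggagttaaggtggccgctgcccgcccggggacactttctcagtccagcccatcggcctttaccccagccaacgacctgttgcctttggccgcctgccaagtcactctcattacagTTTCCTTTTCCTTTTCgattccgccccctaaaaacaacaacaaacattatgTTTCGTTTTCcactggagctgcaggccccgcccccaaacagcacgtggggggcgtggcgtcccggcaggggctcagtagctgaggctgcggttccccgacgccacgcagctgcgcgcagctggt
GBP1 (chr1:89065159-89065458, minus strand): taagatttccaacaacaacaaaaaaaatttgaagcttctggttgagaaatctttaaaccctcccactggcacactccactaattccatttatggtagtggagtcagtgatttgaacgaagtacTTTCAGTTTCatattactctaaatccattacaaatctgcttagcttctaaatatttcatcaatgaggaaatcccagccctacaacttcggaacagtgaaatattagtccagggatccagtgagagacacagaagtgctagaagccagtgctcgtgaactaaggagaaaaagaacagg
In ISG15 a pair of overlapping matches began 113 and 107 bases before the gene start, and in IFIT1 the matches began 116 and 103 bases before it. IFI6 held 3 matches, at 156, 115 and 93 bases before the start, HERC5 held 3, at 125, 119 and 74 bases, and GBP1 held 1, at 127 bases. Searched on both strands, the ISRE core was in 20 of the 33 promoters (60.6%), against 3.57% of 35116 RefSeq promoters of the same length. The core of the gamma-activated site, TTC, any 3 bases and GAA, which reads the same on both strands, was in 7 of the 33 (21.2%), against 7.66% of all promoters. A match is a run of letters in the window, and binding was not measured there for any interferon factor.

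Totals were 50017255 to 74374857 fragments per siRNA library. Each siRNA target was lowest under its own siRNA: SMARCA4 lay at 2.26 to 5.90 CPM (fragments relative to library size, scaled by TMM and multiplied by 1e6) in si-BRG1 against 61.7 or more elsewhere, CBX3 at 3.07 to 6.80 CPM in si-CBX3 against 241.9 or more, and FOXA1 at 44.4 to 62.8 CPM in si-FOXA1 against 157.6 or more. The targets also moved under other siRNAs. SMARCA4 was called higher than in si-control in si-FOXA1 (log2 fold change 1.27 at 6 h and 1.38 at 0 h) and si-CBX3 (0.93 and 1.34). CBX3 was called higher in si-FOXA1 (0.44 and 0.36), and FOXA1 in si-CBX3 (0.43 and 0.33). The part of these rises in the members' levels was not tested. The 10 luminal markers, which include FOXA1 itself, summed to 7026 to 12510 CPM in every library; in si-FOXA1 at 0 h 6 of the 10 were called lower and 2 higher than in si-control, with KRT8 at 4397 and 4698 CPM in si-FOXA1, against 2447 and 2511 CPM in si-control. The 8 leukocyte markers, PTPRC and CD3E among them, summed to 1.70 to 2.11 CPM in si-FOXA1, 1.37 to 1.90 CPM in si-CBX3 and 0.80 to 1.03 CPM in si-BRG1, against 1.14 to 1.65 CPM in si-control, with 0 to 3 of the 8 at 0 in a group. The 7 fibroblast and mesenchymal markers, mostly COL1A1, summed to 24.3 to 36.3 CPM in si-FOXA1, 44.0 to 54.1 CPM in si-CBX3 and 40.9 to 63.3 CPM in si-BRG1, against 45.8 to 51.0 CPM in si-control. All 4 of them that were tested fell in si-FOXA1 at both times (medians of -1.06 at 6 h and -1.14 at 0 h), as the interferon-stimulated genes did; their part in the members' falls was not tested. These are bulk libraries, in which fewer cells of a kind and less RNA per cell cannot be told apart.

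Together the 41 genes were lower under each of the 3 knockdowns than under si-control at both times. Their summed level was 806 and 776 CPM in si-FOXA1, 2387 and 2304 CPM in si-CBX3 and 1477 and 1374 CPM in si-BRG1 at 6 h, against 4746 and 4336 CPM in si-control. At 0 h it was 969 and 856 CPM in si-FOXA1, 1941 and 2562 CPM in si-CBX3 and 2078 and 2175 CPM in si-BRG1, against 7348 and 3678 CPM in si-control. The knockdown libraries lay below both si-control libraries at each time, and the si-FOXA1 libraries lay below all others.

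**Figure D1:**
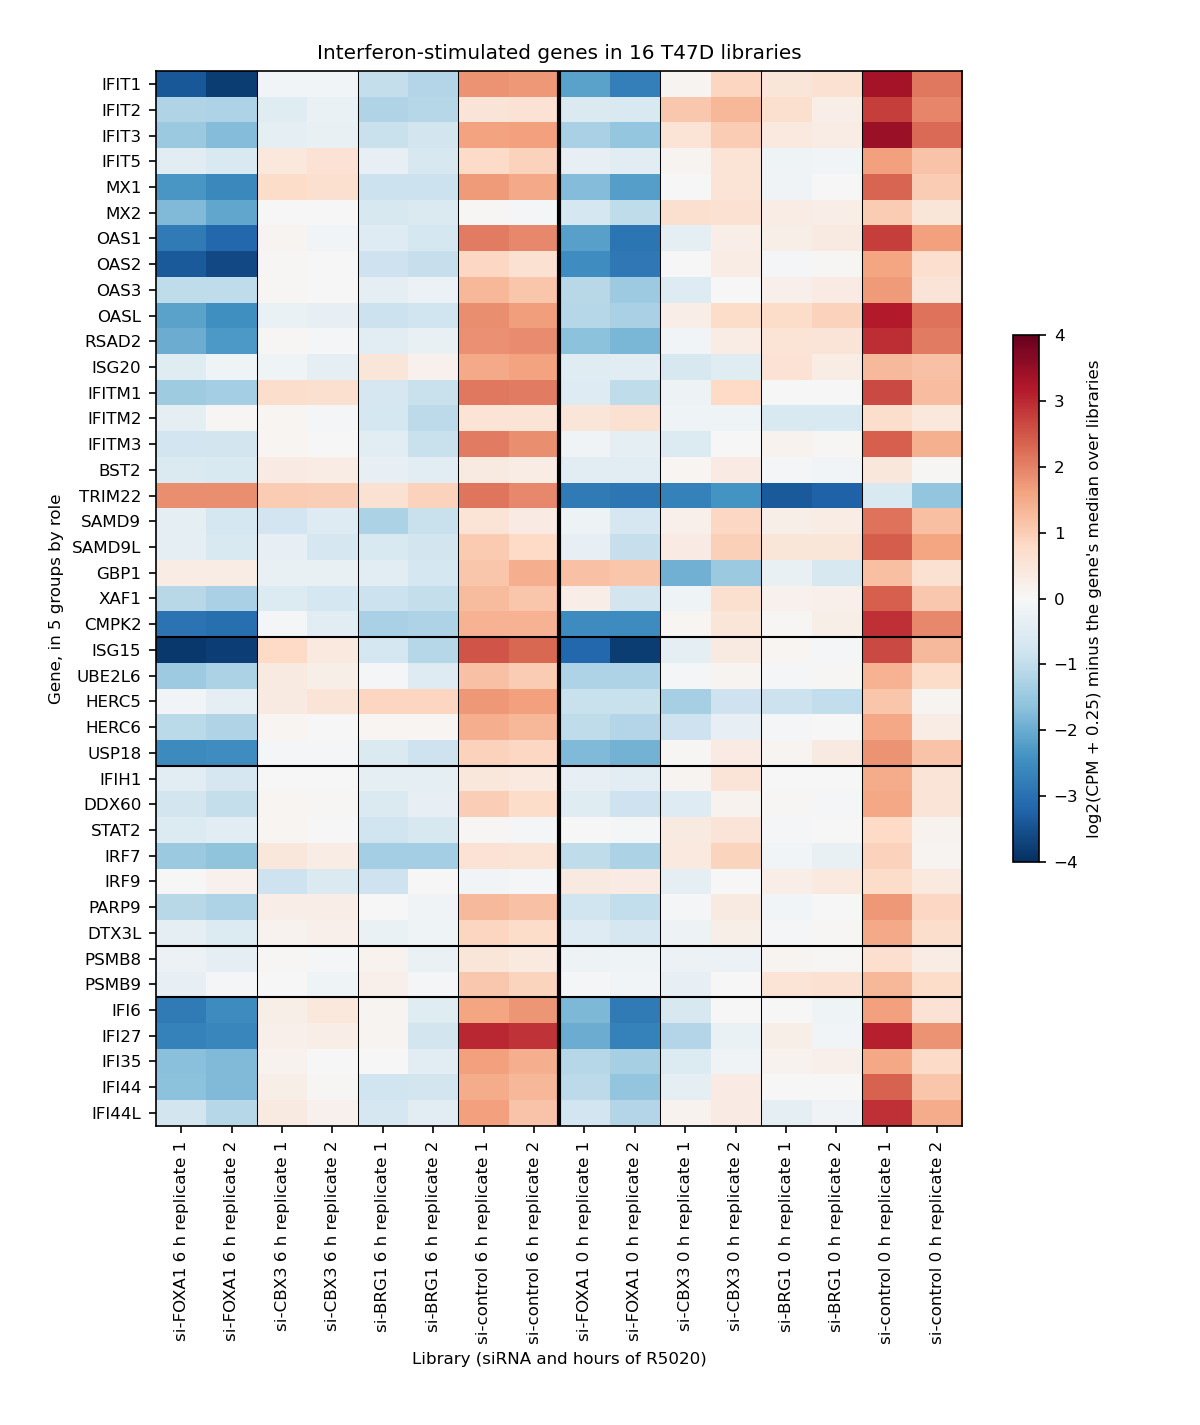
Level of each of the 41 genes (rows, in 5 groups by role) in each of the 16 siRNA libraries (columns, 6 h on the left and 0 h on the right), as log2(CPM + 0.25) minus the gene's median over the 16 libraries. The si-control columns are red for most genes, most deeply in 0 h replicate 1, the si-FOXA1 columns are blue, and TRIM22 is red at 6 h under every siRNA.

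The 2 si-control libraries at 0 h differed from each other for these genes far more than over all genes tested. All 41 members were higher in replicate 1 than in replicate 2, with a median log2 ratio of 0.95 (lowest 0.15 in ISG20, highest 1.45 in IFI44L), while the median over all 18806 genes was 0.02. A ratio of 2-fold or more was reached by 15 of 41 members and by 0.112% of all genes. Of the 41 members 35 had their highest value of all 16 libraries in si-control 0 h replicate 1. In si-CBX3 at 0 h the members differed the other way, with 38 of 41 lower in replicate 1 and a median log2 ratio of -0.44. In the other 6 groups the members' median ratio lay between -0.03 and 0.19. In comparisons that use si-control at 0 h, the medians over the 41 members are therefore also given without replicate 1, as are the knockdown counts. So are the 0 h changes of single members described below that it moved by over 1.5 times. Group means and values per length at 0 h use both libraries. Without it the change over si-control at 0 h was less negative, or more positive, for each of the 41 members in all 3 knockdowns, by a median of 1.41 times in si-FOXA1, 1.42 times in si-CBX3 and 1.44 times in si-BRG1.

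**Figure D2:**
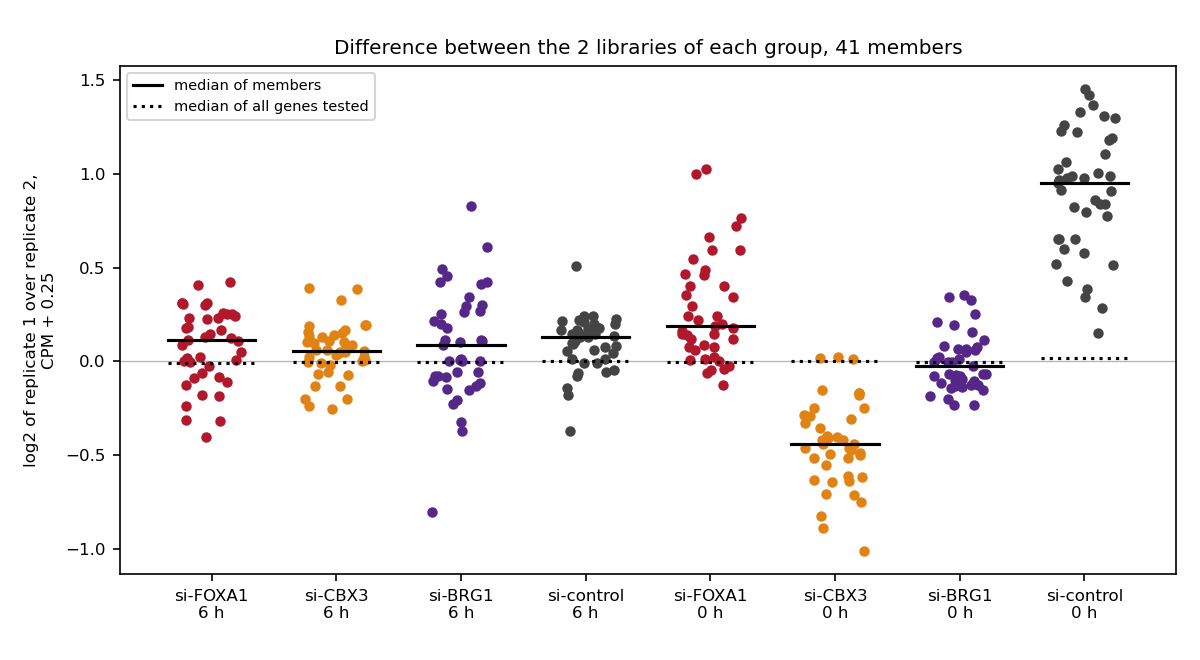
The log2 ratio of replicate 1 over replicate 2, from CPM + 0.25, for each of the 41 genes (points) in each of the 8 groups, with the members' median (solid line) and the median of all genes tested (dotted line). All points of si-control 0 h lie above 0, around a median of 0.95, and most points of si-CBX3 0 h lie below 0.

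In the edgeR quasi-likelihood test with Benjamini-Hochberg adjustment, where a call is an adjusted p below 0.05, nearly all members fell under each knockdown and 0 rose; at an unadjusted p below 0.05, and in DESeq2, 0 were higher as well. At 6 h, 39 of 41 fell in si-FOXA1 over si-control (34.5% of all genes tested fell), 34 of 41 in si-CBX3 (24.4% of all) and 40 of 41 in si-BRG1 (17.8% of all). A signed value without a unit, here and below, is a log2 fold change of the first group named over the second, with its standard error (SE) where given. The members' medians at 6 h were -2.40 in si-FOXA1, -1.20 in si-CBX3 and -1.64 in si-BRG1, beside 0.12, 0.02 and 0.04 over all genes. At 0 h, 38 of 41 fell in si-FOXA1 (33.5% of all), 37 of 41 in si-CBX3 (26.0% of all) and 40 of 41 in si-BRG1 (13.4% of all), with medians of -2.34, -1.51 and -1.43 beside 0.11, 0.05 and 0.03 over all genes. Without si-control 0 h replicate 1 the counts at 0 h were 38, 35 and 30, with medians of -1.83, -0.90 and -0.96. The calls then lost were those of MX2, OAS3, BST2, HERC6, DDX60, STAT2, IRF7, PSMB8, PSMB9 and IFI6 in si-BRG1 and of IFIH1 and IRF9 in si-CBX3, and GBP1 in si-FOXA1 (0.48) and IRF7 in si-CBX3 (0.53) were then called higher, a pair named after their values were seen. The 6 h counts use none of the 0 h libraries in their contrast. The file headers give 1 counting thread for the si-FOXA1 and si-CBX3 libraries and 8 for those of si-BRG1 and si-control. They do not say if this setting marks a batch. If it does, siRNA and batch cannot be told apart in si-FOXA1 or si-CBX3 over si-control. The si-BRG1 and si-control libraries share a setting. The 3 knockdowns share their si-control libraries; 33 members fell in all 3 at 6 h (8.40% of all genes did) and 34 at 0 h (8.25% of all), or 27 at 0 h without si-control 0 h replicate 1 (8.35% of all).

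**Figure D3:**
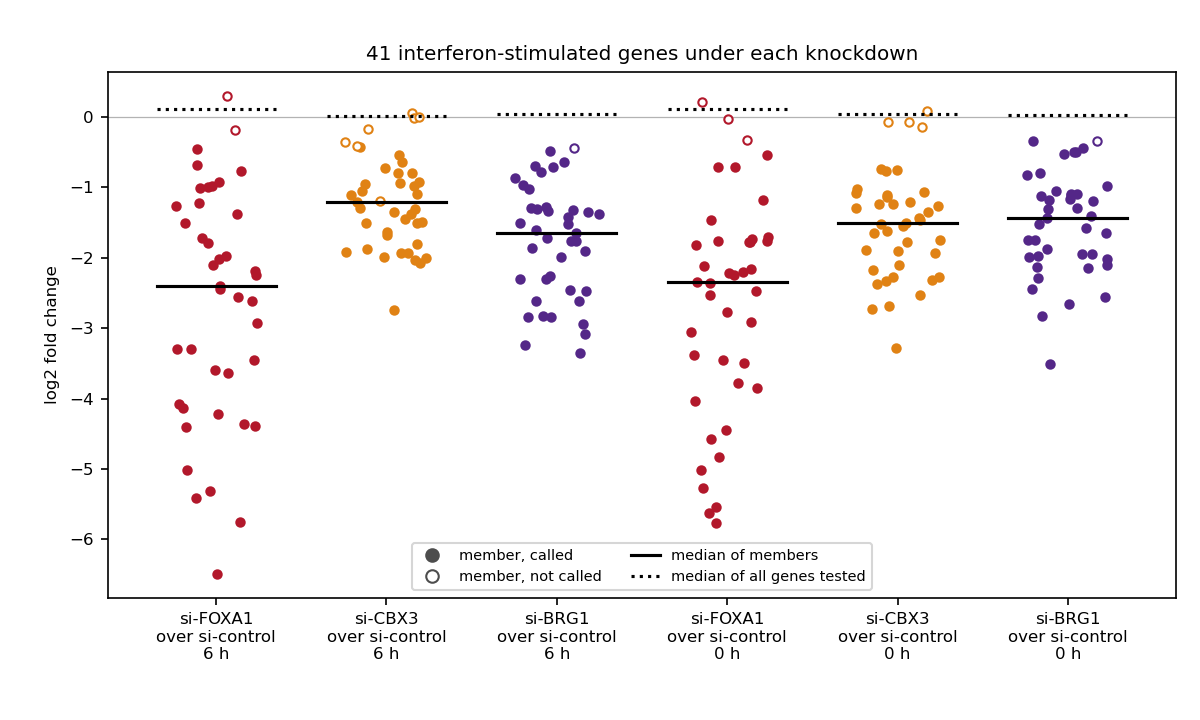
Log2 fold change of each of the 41 genes (points) in each knockdown over si-control, at 6 h (left 3 columns) and 0 h (right 3 columns), with filled points for called genes, the members' median (solid line) and the median of all genes tested (dotted line). Member medians run from -2.40 in si-FOXA1 at 6 h to -1.20 in si-CBX3 at 6 h, and the si-FOXA1 points spread widest, down to -6.49 for ISG15.

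The largest group by role is the antiviral effectors, 22 of the 41 genes. At 6 h, 21 of them fell in si-FOXA1, 19 in si-CBX3 and 22 in si-BRG1, with medians of -2.43, -1.47 and -1.83; at 0 h the counts were 20, 20 and 22, with medians of -2.65, -1.69 and -1.81. IFIT1 (ENSG00000185745.8, chromosome 10, 91152303 to 91163745 in hg19) encodes a protein that binds viral RNA and blocks its translation. IFIT1 was at 6.77 and 5.04 CPM in si-FOXA1, 68.6 and 68.6 CPM in si-CBX3 and 37.8 and 32.5 CPM in si-BRG1 at 6 h, against 257 and 247 CPM in si-control. Its 0 h levels were 16.4 and 10.8 CPM in si-FOXA1, 78.7 and 132 CPM in si-CBX3 and 104 and 113 CPM in si-BRG1, against 739 and 315 CPM in si-control. No knockdown library reached a si-control library of its time, and si-FOXA1 was lowest, at -5.42 (SE 0.36, adjusted p = 6.36e-10) at 6 h and -5.28 (SE 0.34, adjusted p = 5.7e-10) at 0 h, or -4.60 without si-control 0 h replicate 1.

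IFIT3 (ENSG00000119917.9, chromosome 10, 91087651 to 91100728), a partner of IFIT1 in the same complex, was at 5.26 and 4.37 CPM in si-FOXA1, 11.7 and 12.3 CPM in si-CBX3 and 8.15 and 9.04 CPM in si-BRG1 at 6 h, against 47.3 and 47.5 CPM in si-control. IFIT3 at 0 h was at 6.06 and 5.08 CPM in si-FOXA1, 22.5 and 31.3 CPM in si-CBX3 and 19.8 and 18.7 CPM in si-BRG1, against 168 and 73.7 CPM in si-control. Groups did not overlap at either time, and the si-FOXA1 log2 fold changes were -3.30 (SE 0.28, adjusted p = 1.49e-08) at 6 h and -4.44 (SE 0.28, adjusted p = 4.8e-10) at 0 h, or -3.79 without si-control 0 h replicate 1.

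MX1 (ENSG00000157601.9, chromosome 21, 42792231 to 42831141), a dynamin-like GTPase that blocks viral nucleocapsids, was at 49.1 and 41.7 CPM in si-FOXA1, 416 and 387 CPM in si-CBX3 and 138 and 138 CPM in si-BRG1 at 6 h, against 810.4 and 722 CPM in si-control. MX1 at 0 h was at 74.2 and 53.6 CPM in si-FOXA1, 248 and 365 CPM in si-CBX3 and 226 and 251 CPM in si-BRG1, against 1240.5 and 505 CPM in si-control. The knockdown libraries lay below those of si-control at both times, with -4.08 (SE 0.31, adjusted p = 3.12e-09) at 6 h and -3.77 (SE 0.30, adjusted p = 7.24e-09) at 0 h in si-FOXA1 over si-control, or -3.05 at 0 h without si-control 0 h replicate 1. Its neighbour MX2 was low, at 1.15 to 11.5 CPM over the 16 libraries, and in si-CBX3 its changes of 0.00 at 6 h and -0.14 at 0 h did not pass the test.

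OAS1 (ENSG00000089127.8, chromosome 12, 113344582 to 113369990), an oligoadenylate synthetase that switches on the ribonuclease RNase L, was at 6.67 and 5.32 CPM in si-FOXA1, 51.9 and 45.2 CPM in si-CBX3 and 33.8 and 29.9 CPM in si-BRG1 at 6 h, against 204 and 185 CPM in si-control. OAS1 at 0 h was at 10.6 and 6.15 CPM in si-FOXA1, 37.7 and 57.9 CPM in si-CBX3 and 56.7 and 62.0 CPM in si-BRG1, against 328 and 153 CPM in si-control. The si-FOXA1 libraries were the lowest at both times, at -5.02 (SE 0.33, adjusted p = 5.88e-10) at 6 h and -4.84 (SE 0.32, adjusted p = 6.9e-10) at 0 h, or -4.25 without si-control 0 h replicate 1. OAS2, OAS3 and OASL also fell in all 6 comparisons, from -0.73 (OAS2 in si-CBX3 at 6 h) to -4.22 (OAS2 in si-FOXA1 at 6 h). So did the nucleotide enzyme gene CMPK2 and RSAD2, which encodes the antiviral protein viperin, with -5.31 and -4.36 in si-FOXA1 at 6 h.

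The IFITM genes encode membrane proteins that hinder the fusion of viruses with the cell. IFITM1 (ENSG00000185885.11, chromosome 11, 313506 to 315272) was at 2.98 and 3.17 CPM in si-FOXA1, 13.9 and 13.3 CPM in si-CBX3 and 5.20 and 4.49 CPM in si-BRG1 at 6 h, against 37.6 and 36.5 CPM in si-control. IFITM1 at 0 h was at 5.80 and 4.06 CPM in si-FOXA1, 7.29 and 14.9 CPM in si-CBX3 and 8.48 and 8.49 CPM in si-BRG1, against 54.3 and 20.1 CPM in si-control. It fell in every knockdown, with log2 fold changes of -3.59 at 6 h and -2.91 at 0 h in si-FOXA1, or -2.09 at 0 h without si-control 0 h replicate 1. IFITM2 (ENSG00000185201.12, chromosome 11, 307631 to 315272), its neighbour, was at 21.6 and 28.7 CPM in si-FOXA1, 29.2 and 26.6 CPM in si-CBX3 and 17.00 and 13.4 CPM in si-BRG1 at 6 h, against 40.6 and 40.1 CPM in si-control. At 0 h IFITM2 was at 38.6 and 42.1 CPM in si-FOXA1, 24.7 and 24.4 CPM in si-CBX3 and 18.2 and 18.2 CPM in si-BRG1, against 45.1 and 37.0 CPM in si-control. The si-FOXA1 and si-control libraries of IFITM2 overlapped at 0 h (-0.03, SE 0.13, adjusted p = 0.858), while si-CBX3 and si-BRG1 lay below si-control. IFITM1 shares 32.5% of its exonic bases with IFITM2 on the same strand, and IFITM2 26.9% with IFITM1, so reads from the shared bases cannot be told apart; IFITM3 shares none and fell in all 6 comparisons.

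BST2 (ENSG00000130303.8, chromosome 19, 17513748 to 17516457), also called tetherin, holds budding virus at the cell surface and was the highest member per length, at 136 CPM per kb in si-FOXA1 and 259 in si-control at 6 h. BST2 was at 153 and 152 CPM in si-FOXA1, 292 and 282 CPM in si-CBX3 and 184 and 170.3 CPM in si-BRG1 at 6 h, against 295 and 285 CPM in si-control. BST2 at 0 h was at 168 and 173 CPM in si-FOXA1, 241 and 287 CPM in si-CBX3 and 225 and 216 CPM in si-BRG1, against 318 and 237 CPM in si-control. Its si-FOXA1 libraries were the lowest at both times, with -0.93 (SE 0.11, adjusted p = 5.93e-07) at 6 h and -0.70 (SE 0.11, adjusted p = 1.5e-05) at 0 h, and its si-CBX3 libraries overlapped those of si-control (-0.01 at 6 h and -0.07 at 0 h, not called).

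GBP1 (ENSG00000117228.9, chromosome 1, 89518002 to 89531043), a guanylate-binding GTPase best known as a target of interferon gamma, did not follow the other effectors. GBP1 was at 11.0 and 11.0 CPM in si-FOXA1, 7.17 and 7.13 CPM in si-CBX3 and 6.53 and 5.41 CPM in si-BRG1 at 6 h, against 19.4 and 25.1 CPM in si-control. GBP1 at 0 h was at 20.5 and 19.4 CPM in si-FOXA1, 2.17 and 3.03 CPM in si-CBX3 and 7.20 and 5.63 CPM in si-BRG1, against 20.8 and 13.7 CPM in si-control. Its si-FOXA1 and si-control libraries overlapped at 0 h (0.21, SE 0.17, adjusted p = 0.283) and separated at 6 h (-1.01, SE 0.18, adjusted p = 6.95e-05), and its lowest group was si-CBX3 at 0 h (-2.73, SE 0.20, adjusted p = 1.08e-08).

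TRIM22 (ENSG00000132274.11, chromosome 11, 5710919 to 5758319), a ubiquitin ligase with antiviral activity, was at 24.4 and 24.0 CPM in si-FOXA1, 13.4 and 13.1 CPM in si-CBX3 and 9.92 and 12.5 CPM in si-BRG1 at 6 h, against 29.4 and 25.4 CPM in si-control. TRIM22 at 0 h was at 0.693 and 0.654 CPM in si-FOXA1, 0.787 and 1.03 CPM in si-CBX3 and 0.403 and 0.472 CPM in si-BRG1, against 4.19 and 2.02 CPM in si-control. It was low in every group at 0 h and lowest in si-BRG1 (-2.83, SE 0.31, adjusted p = 5.57e-06, or -2.23 without si-control 0 h replicate 1); at 6 h si-FOXA1 was no longer called below si-control (-0.18, SE 0.18, adjusted p = 0.361). TRIM22 shares 10.6% of its exonic bases with OR56B1 on the same strand. The remaining effectors, IFIT2, IFIT5, ISG20, SAMD9, SAMD9L and XAF1, fell in all 6 comparisons except IFIT5 in si-CBX3 at 6 h (-0.35, not called).

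The 5 genes of the ISG15 conjugation system fell in all 6 comparisons. ISG15 (ENSG00000187608.5, chromosome 1, 948803 to 949920) encodes the modifier itself, UBE2L6 the conjugating enzyme, HERC5 the main human ligase, HERC6 a relative of it, and USP18 the protease that removes ISG15 and also restrains the interferon receptor. ISG15 was at 1.10 and 1.21 CPM in si-FOXA1, 33.9 and 25.8 CPM in si-CBX3 and 11.9 and 8.63 CPM in si-BRG1 at 6 h, against 112 and 97.1 CPM in si-control. ISG15 at 0 h was at 1.98 and 1.16 CPM in si-FOXA1, 15.2 and 24.99 CPM in si-CBX3 and 20.6 and 18.4 CPM in si-BRG1, against 124 and 48.0 CPM in si-control. This was the deepest fall of any member in si-FOXA1, 89.8-fold at 6 h (-6.49, SE 0.43, adjusted p = 7.94e-10) and 54.6-fold at 0 h (-5.77, SE 0.41, adjusted p = 1.74e-09). Without si-control 0 h replicate 1, ISG15 was 31.8-fold lower at 0 h (-4.99). CMPK2 was then the deepest fall at 0 h, 34.4-fold (-5.10), so the rank of ISG15 at 0 h depends on that library. The ISG15 promoter, printed above, holds a pair of overlapping ISRE cores.

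USP18 (ENSG00000184979.9, chromosome 22, 18632666 to 18660164) was at 1.27 and 1.33 CPM in si-FOXA1, 8.36 and 8.40 CPM in si-CBX3 and 5.70 and 4.74 CPM in si-BRG1 at 6 h, against 16.8 and 15.7 CPM in si-control. USP18 at 0 h was at 2.34 and 2.13 CPM in si-FOXA1, 8.89 and 11.0 CPM in si-CBX3 and 9.41 and 11.1 CPM in si-BRG1, against 30.8 and 19.5 CPM in si-control. The knockdown libraries lay below those of si-control at both times, and the si-FOXA1 changes were -3.64 (SE 0.21, adjusted p = 1.27e-10) at 6 h and -3.49 (SE 0.19, adjusted p = 6.15e-11) at 0 h. UBE2L6, HERC5 and HERC6 changed by -2.44, -2.02 and -2.55 in si-FOXA1 at 6 h, all called.

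Among the 7 sensing and signalling genes, 6 fell in si-FOXA1, 3 in si-CBX3 and 6 in si-BRG1 at 6 h, and 6, 5 and 6 at 0 h. STAT2 (ENSG00000170581.9, chromosome 12, 56735381 to 56753939), a subunit of ISGF3, was at 49.5 and 54.0 CPM in si-FOXA1, 75.8 and 72.1 CPM in si-CBX3 and 41.2 and 45.9 CPM in si-BRG1 at 6 h, against 74.4 and 67.1 CPM in si-control. STAT2 at 0 h was at 71.5 and 67.3 CPM in si-FOXA1, 91.3 and 102 CPM in si-CBX3 and 68.4 and 71.8 CPM in si-BRG1, against 124 and 78.5 CPM in si-control. Its falls were among the smallest, -0.45 (SE 0.14, adjusted p = 0.00859) in si-FOXA1 and -0.70 (SE 0.14, adjusted p = 0.00106) in si-BRG1 at 6 h, and its si-CBX3 and si-control libraries overlapped at both times.

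IRF7 (ENSG00000185507.15, chromosome 11, 612553 to 615999), the factor that amplifies interferon transcription, was at 3.03 and 2.79 CPM in si-FOXA1, 12.4 and 11.1 CPM in si-CBX3 and 3.35 and 3.32 CPM in si-BRG1 at 6 h, against 13.3 and 13.2 CPM in si-control. IRF7 at 0 h was at 4.29 and 3.59 CPM in si-FOXA1, 11.9 and 16.8 CPM in si-CBX3 and 8.33 and 7.18 CPM in si-BRG1, against 17.3 and 9.59 CPM in si-control. It fell in si-FOXA1 (-2.19, SE 0.23, adjusted p = 1.66e-07 at 6 h) and si-BRG1 (-1.99, SE 0.22, adjusted p = 4.72e-06 at 6 h) and was not called in si-CBX3 (-0.17 at 6 h and 0.09 at 0 h).

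IRF9 (ENSG00000213928.4, chromosome 14, 24630262 to 24635774), the DNA-binding subunit of ISGF3, was poorly measured, with 436 fragments over all 16 libraries and 48.4% of its exonic bases shared with another gene, ENSG00000259529, on the same strand. IRF9 was at 0.410 and 0.499 CPM in si-FOXA1, 0.125 and 0.193 CPM in si-CBX3 and 0.122 and 0.399 CPM in si-BRG1 at 6 h, against 0.359 and 0.379 CPM in si-control. IRF9 at 0 h was at 0.592 and 0.578 CPM in si-FOXA1, 0.267 and 0.412 CPM in si-CBX3 and 0.552 and 0.608 CPM in si-BRG1, against 0.847 and 0.615 CPM in si-control. It was called only in si-CBX3 at 0 h (-1.11, SE 0.35, adjusted p = 0.0141), a call lost without si-control 0 h replicate 1 (-0.90, adjusted p = 0.111). The RNA sensor IFIH1 (MDA5), the helicase DDX60, and PARP9 and its partner DTX3L fell in all 6 comparisons except IFIH1 in si-CBX3 at 6 h (-0.41, not called).

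The immunoproteasome subunits PSMB8 and PSMB9, which replace constitutive subunits and shape peptides for MHC class I, fell in all 6 comparisons. With all libraries they fell by less than the members' median in each. Without si-control 0 h replicate 1, PSMB9 in si-CBX3 at 0 h was at -0.98, below the members' median of -0.90. PSMB8 (ENSG00000204264.4, chromosome 6, 32808494 to 32812480) was at 38.2 and 34.6 CPM in si-FOXA1, 47.5 and 44.3 CPM in si-CBX3 and 50.5 and 37.9 CPM in si-BRG1 at 6 h, against 64.0 and 59.7 CPM in si-control. PSMB8 at 0 h was at 39.1 and 40.2 CPM in si-FOXA1, 38.6 and 38.2 CPM in si-CBX3 and 48.9 and 46.7 CPM in si-BRG1, against 73.1 and 56.0 CPM in si-control. The PSMB8 log2 fold changes ran from -0.76 in si-FOXA1 at 6 h to -0.43 in si-CBX3 at 6 h. Without si-control 0 h replicate 1 its change in si-BRG1 at 0 h was -0.25. PSMB9 (ENSG00000240065.3, chromosome 6, 32811913 to 32827362) was at 4.87 and 5.78 CPM in si-FOXA1, 6.19 and 5.38 CPM in si-CBX3 and 7.02 and 5.80 CPM in si-BRG1 at 6 h, against 13.2 and 11.6 CPM in si-control. PSMB9 at 0 h was at 5.93 and 5.60 CPM in si-FOXA1, 4.78 and 6.06 CPM in si-CBX3 and 9.002 and 9.52 CPM in si-BRG1, against 15.6 and 10.4 CPM in si-control. With all libraries PSMB9 fell most in si-CBX3 at 0 h (-1.26, SE 0.17, adjusted p = 7.84e-06). That -0.98 without si-control 0 h replicate 1 is a smaller fall than its -1.22 in si-FOXA1 at 6 h. PSMB9 shares 5.66% of its exonic bases with PSMB8-AS1 on the same strand.

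The last group holds 5 proteins known mainly as interferon-induced: IFI6, IFI27, IFI35, IFI44 and IFI44L, all of which fell in all 6 comparisons. IFI27 (ENSG00000165949.8, chromosome 14, 94571182 to 94583033) was at 2.10 and 2.24 CPM in si-FOXA1, 17.1 and 17.8 CPM in si-CBX3 and 16.1 and 8.96 CPM in si-BRG1 at 6 h, against 122 and 113 CPM in si-control. IFI27 at 0 h was at 3.61 and 2.09 CPM in si-FOXA1, 6.56 and 12.4 CPM in si-CBX3 and 17.5 and 13.9 CPM in si-BRG1, against 132 and 52.5 CPM in si-control. It was the deepest fall in si-CBX3 at both times, with -2.75 (SE 0.36, adjusted p = 7.85e-06) at 6 h and -3.29 (SE 0.37, adjusted p = 1.17e-06) at 0 h, or -2.52 without si-control 0 h replicate 1. IFI6 (ENSG00000126709.10, chromosome 1, 27992572 to 27998729), an antiapoptotic membrane protein, was at 7.98 and 10.0 CPM in si-FOXA1, 68.6 and 78.8 CPM in si-CBX3 and 63.0 and 41.2 CPM in si-BRG1 at 6 h, against 176 and 199.7 CPM in si-control. IFI6 at 0 h was at 16.6 and 8.01 CPM in si-FOXA1, 36.9 and 57.4 CPM in si-CBX3 and 59.0 and 51.6 CPM in si-BRG1, against 183 and 87.5 CPM in si-control. The knockdown libraries lay below those of si-control at both times, and the change in si-FOXA1 was -4.38 (SE 0.36, adjusted p = 9.25e-09) at 6 h.

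**Figure D4:**
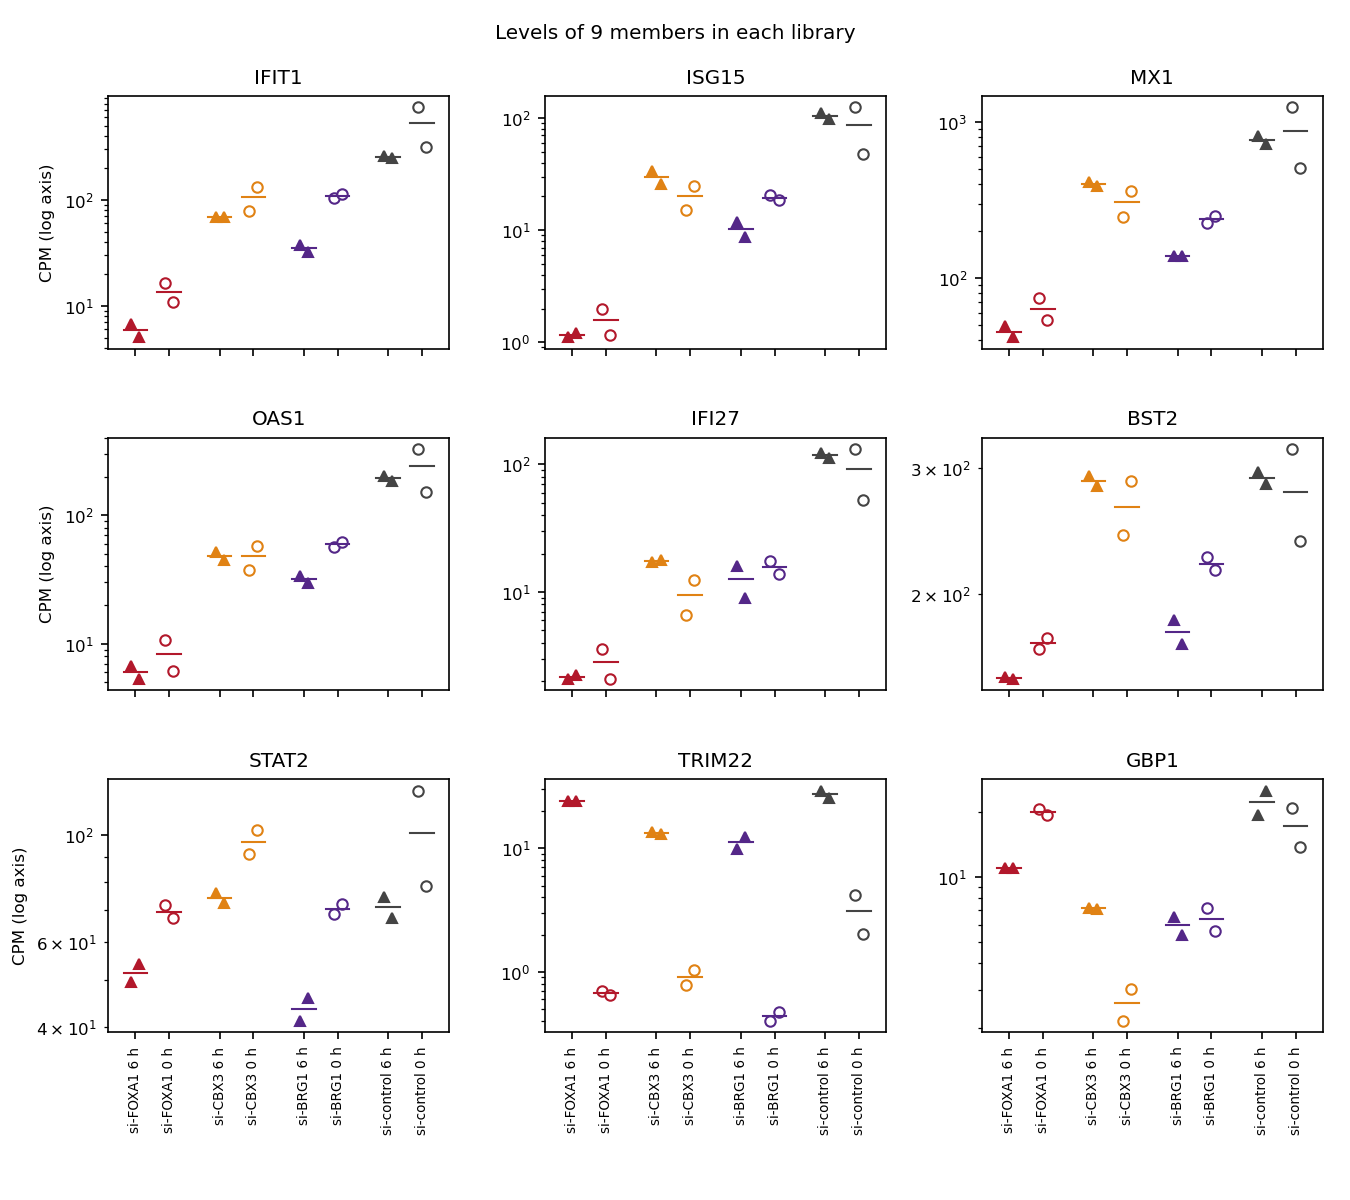
CPM (log axis) of 9 members in each library, by siRNA and hours of R5020; filled triangles are 6 h libraries, open circles are 0 h libraries, and lines are group means of 2 libraries. IFIT1, ISG15, MX1, OAS1 and IFI27 are lowest in si-FOXA1, BST2 and STAT2 span a narrower range than these, TRIM22 is higher at 6 h under each siRNA, and GBP1 is near si-control in si-FOXA1 at 0 h.

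The depth of the falls differed between knockdowns, also in comparisons that use no si-control library. At 0 h, 28 of 41 members were lower in si-FOXA1 than in si-BRG1 (32.3% of all genes) and 2 were higher (35.5% of all), with a median of -1.07 beside 0.06 over all genes. Against si-CBX3, 29 were lower in si-FOXA1 (30.6% of all) and 2 higher (34.2% of all), with a median of -1.06 beside 0.05. The 2 that were higher were GBP1 and IFITM2 both times, by 1.64 and 1.15 over si-BRG1 and by 2.94 and 0.71 over si-CBX3. ISG15 was the lowest in each, at -3.63 and -3.67. These comparisons share the si-FOXA1 libraries. In si-FOXA1 over si-BRG1, and in si-CBX3 over si-BRG1 below, siRNA and counting setting cannot be told apart. The si-FOXA1 and si-CBX3 libraries share a setting. Between si-CBX3 and si-BRG1 at 0 h, 5 members were lower in si-CBX3 (20.2% of all genes) and 6 higher (22.0% of all), shares below those of all genes, and the median was 0.04 beside 0.02; without si-BRG1 0 h replicate 1 the counts were 3 and 2. GBP1 (-1.30) and ISG20 (-1.07) were the lowest called, and TRIM22 (1.05) and IRF7 (0.88) the highest. By group mean, si-FOXA1 was the lowest siRNA for 34 of 41 members at 6 h and 32 at 0 h, and si-control the highest for 38 and 39.

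Per length, members also changed place. In si-FOXA1 at 0 h the members lay at a median of 2.20 CPM per kb, beside 2.59 over all genes tested, and in si-control at 18.4 CPM per kb, beside 2.21. BST2 led in si-FOXA1 and in si-control, at 152 and 248 CPM per kb. Behind it came IFITM2 (30.8), PSMB8 (19.8) and UBE2L6 (18.5) in si-FOXA1, and IFIT1 (171), IFI6 (156) and OAS2 (151) in si-control. The si-control values are means of both 0 h libraries. Replicate 1 was 2.34 times replicate 2 for IFIT1, 2.09 for IFI6, 1.88 for OAS2 and 1.34 for BST2, so this order depends on replicate 1.

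Of the 41 genes, 24 lie in 10 clusters of neighbours less than 100 kb apart, and neighbours did not always move alike. The IFIT cluster on chromosome 10 (91061712 to 91180758 in hg19) holds IFIT2, IFIT3, IFIT1 and IFIT5, with -3.05, -4.44, -5.28 and -1.82 in si-FOXA1 over si-control at 0 h. In the IFITM cluster on chromosome 11 (307631 to 327537), IFITM1 was at -2.91, IFITM3 at -2.35 and IFITM2 at -0.03 in that comparison. MX1 and MX2 on chromosome 21 (42733870 to 42831141) were at -3.77 and -1.70. The other clusters hold OAS1, OAS3 and OAS2, and the pairs IFI44L and IFI44, CMPK2 and RSAD2, PARP9 and DTX3L, HERC6 and HERC5, PSMB8 and PSMB9, and SAMD9 and SAMD9L.

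The hormone response, 6 h of R5020 over 0 h, was mixed, with members called in both directions under every siRNA. In si-FOXA1, 10 of 41 members fell (19.6% of all genes tested) and 2 rose (19.1% of all); in si-CBX3, 7 fell (20.5%) and 3 rose (20.4%); in si-BRG1, 21 fell (17.1%) and 2 rose (18.6%). In si-control, 15 fell (18.1% of all genes) and 2 rose (19.5%). The members' medians were -0.42, 0.12, -0.69 and -0.27 in si-FOXA1, si-CBX3, si-BRG1 and si-control, beside -0.04, -0.02, -0.03 and -0.02 over all genes. Each of these 4 comparisons uses its own libraries. The values in si-control depend on 0 h replicate 1: without it the members' median was 0.23, and without replicate 2 it was -0.70, beside -0.01 over all genes in each. Without si-BRG1 0 h replicate 2 the count that fell in si-BRG1 was 13, and without si-FOXA1 0 h replicate 1 the count in si-FOXA1 was 4. Without si-control 0 h replicate 1, MX1, OAS3, IFITM1 and IFITM3 were at 0.58, 0.66, 0.86 and 0.56 in si-control, against -0.19, -0.02, -0.01 and -0.01 with it. They are examples among 16 of 41 members whose sign turned in si-control, and not a full list of those that then rose.

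TRIM22 and HERC5 rose under all 4 siRNAs (7.46% of all genes did). TRIM22 was at 24.4 and 24.0 CPM at 6 h against 0.693 and 0.654 CPM at 0 h in si-FOXA1, a log2 fold change of 5.16 (SE 0.25, adjusted p = 5.59e-11). It rose by 3.87 in si-CBX3, 4.68 in si-BRG1 and 3.13 in si-control (3.74 without 0 h replicate 1). HERC5 was at 3.05 and 2.56 CPM at 6 h against 1.67 and 1.67 CPM at 0 h in si-FOXA1, 4.39 and 4.84 against 1.19 and 1.78 in si-CBX3 and 6.24 and 6.24 against 1.73 and 1.58 in si-BRG1. In si-control it was at 11.7 and 11.0 CPM at 6 h and 7.43 and 3.66 CPM at 0 h. The 6 h libraries of HERC5 lay above the 0 h libraries under each siRNA, with 0.74 (SE 0.26, adjusted p = 0.034) in si-FOXA1, 1.64 in si-CBX3, 1.91 in si-BRG1 and 1.03 in si-control. Its neighbour HERC6 was not called in any (-0.04 to 0.60). GBP1 also rose, by 1.46 (SE 0.21, adjusted p = 2.58e-05) in si-CBX3, and it fell in si-FOXA1 (-0.86, SE 0.18, adjusted p = 0.000969).

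IFIT2, OASL, MX2 and STAT2 fell under all 4 siRNAs (5.16% of all genes did). IFIT2 (ENSG00000119922.7, chromosome 10, 91061712 to 91069033), an RNA-binding protein of the IFIT family, was at 6.36 and 6.28 CPM at 6 h and 9.89 and 9.85 CPM at 0 h in si-FOXA1. In si-CBX3 it was at 10.7 and 12.4 CPM at 6 h and 31.8 and 37.8 CPM at 0 h. In si-BRG1 it was at 6.31 and 6.68 CPM at 6 h and 23.3 and 18.2 CPM at 0 h, and in si-control at 21.5 and 22.4 CPM at 6 h and 104 and 58.8 CPM at 0 h. The 6 h libraries were below the 0 h libraries under each siRNA, and the fall was smallest in si-FOXA1 (-0.64, against -1.59 in si-CBX3, -1.67 in si-BRG1 and -1.89 in si-control). OASL changed by -1.11, -0.81, -1.67 and -1.01 in si-FOXA1, si-CBX3, si-BRG1 and si-control. MX2 changed by -1.19, -0.65, -0.93 and -0.79, and STAT2 by -0.42, -0.39, -0.69 and -0.52, in the same order. Without si-control 0 h replicate 1, IFIT2, OASL and MX2 still fell in si-control (-1.44, -0.44 and -0.53), and STAT2 did not pass (-0.17, adjusted p = 0.222), nor did STAT2 pass without si-control 6 h replicate 2 (-0.45, adjusted p = 0.075). With any 1 of the 4 si-FOXA1 libraries left out, HERC5 (0.61 to 0.86), IFIT2 (-0.66 to -0.63) and STAT2 (-0.49 to -0.37) kept their direction in si-FOXA1 and did not pass. In si-CBX3, OASL did not pass without 0 h replicate 2 (-0.56) or 6 h replicate 2 (-0.78), and STAT2 did not pass without those or without 6 h replicate 1 (-0.40 to -0.30). In si-FOXA1 the deepest fall was IFIT1 (-1.21, SE 0.34, adjusted p = 0.00907). Over the 4 siRNAs 26 members fell in at least 1 (38.9% of all genes did), 3 rose in at least 1 (35.5% of all) and 13 were called in none (31.8% of all). These counts include the si-control response, which depends on 0 h replicate 1.

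**Figure D5:**
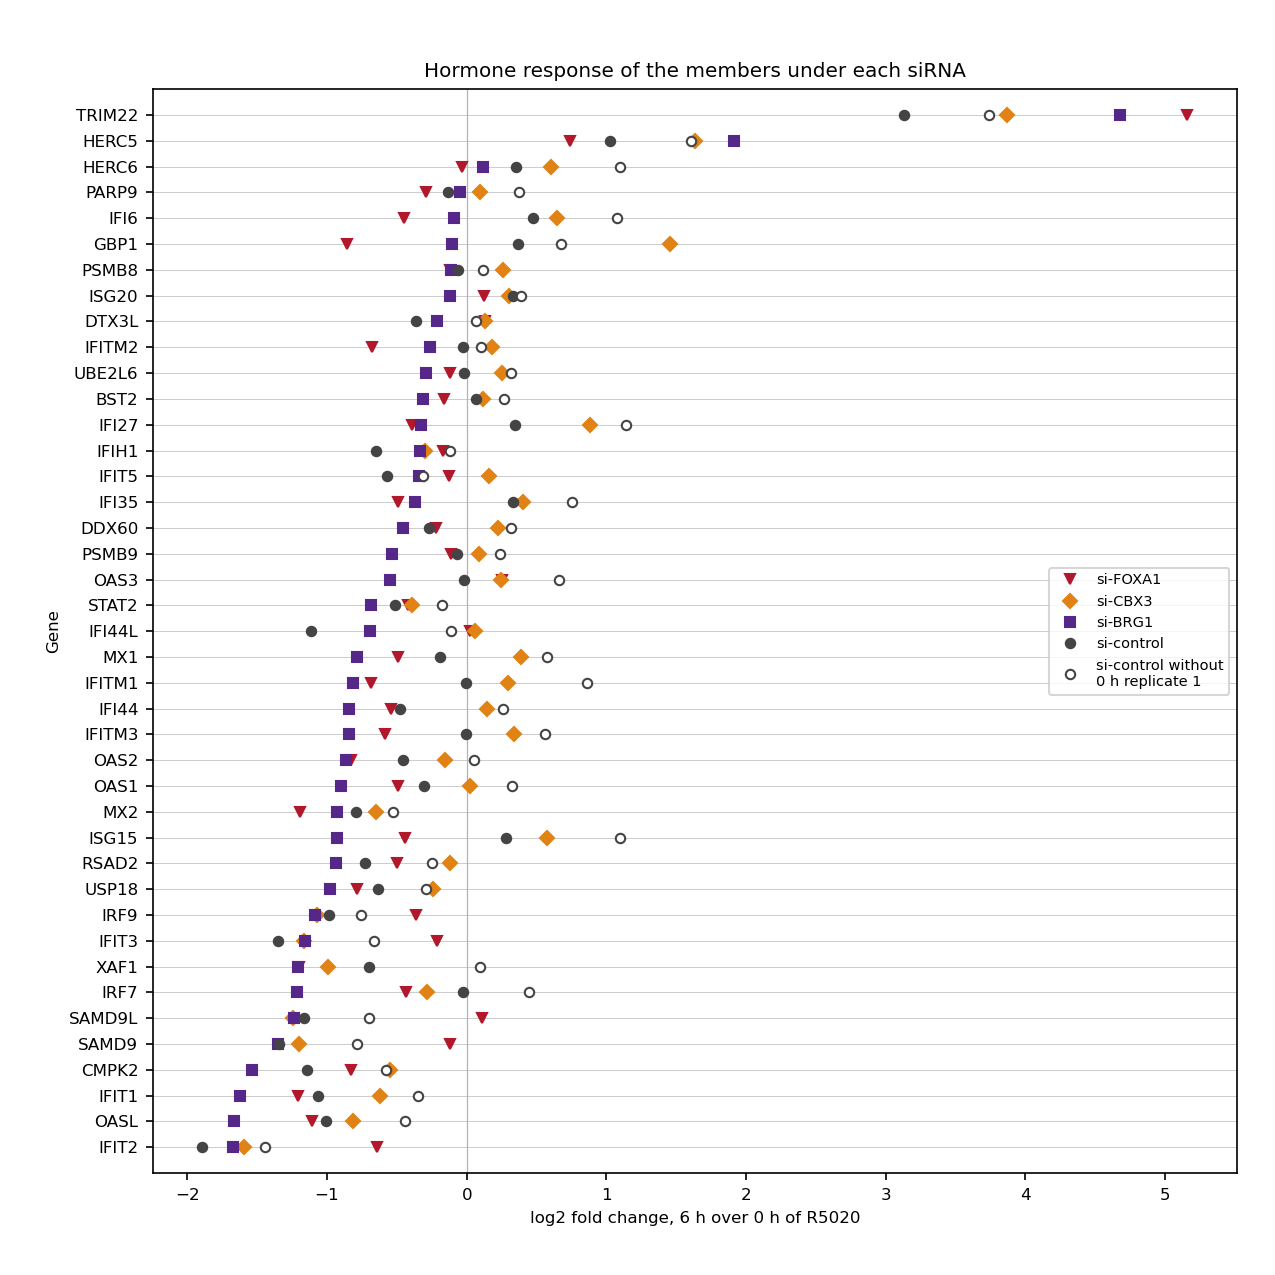
Log2 fold change of 6 h over 0 h of R5020 for each of the 41 genes (rows, sorted by si-BRG1) under each siRNA, with open circles for si-control when 0 h replicate 1 is left out. TRIM22 lies at 3.13 to 5.16 and HERC5 at 0.74 to 1.91, IFIT2 lies below 0 under each siRNA, and the open circles lie to the right of the filled si-control circles.

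The difference between the hormone responses of a knockdown and of si-control was tested as an interaction. It was positive for 5 members in si-FOXA1 (13.0% of all genes tested) and negative for 3 (15.7%), positive for 2 in si-CBX3 (4.63%) and negative for 0 (4.36%), and positive for 1 in si-BRG1 (1.49%) and negative for 1 (3.72%). For the count of 0, an unadjusted p below 0.05, DESeq2 and each library of that comparison left out in turn also gave 0. In si-FOXA1 the response of IFIT2, IFIT3, SAMD9 and SAMD9L was higher than in si-control by 1.25, 1.14, 1.22 and 1.28. Without si-control 0 h replicate 1 these differences were 0.81, 0.45, 0.67 and 0.81. SAMD9 and SAMD9L restrict poxviruses in human cells. SAMD9 was at 15.2 and 12.2 CPM at 6 h and 17.2 and 12.4 CPM at 0 h in si-FOXA1, against 29.0 and 24.9 CPM at 6 h and 90.8 and 45.7 CPM at 0 h in si-control. The si-FOXA1 libraries of the 2 times overlapped, and those of si-control did not. TRIM22 differed by 2.03 in si-FOXA1 and 1.54 in si-BRG1, GBP1 by -1.22 in si-FOXA1 and 1.09 in si-CBX3, and IRF7 by -1.19 in si-BRG1. The 3 differences share the si-control libraries. Without si-control 0 h replicate 1 the members' median difference was -0.53 in si-FOXA1, -0.16 in si-CBX3 and -0.68 in si-BRG1. With it these medians were -0.14, 0.30 and -0.34.

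The upstream genes of the pathway were read from lists by role. Of 8 interferon genes only IFNL1, a type III interferon, had enough fragments to test. It reached 10 fragments only in both si-control libraries and 1 si-CBX3 library at 0 h. IFNL1 thus passed the filter on low counts mainly through si-control at 0 h, where it was high. The falls from that group given next describe these counts and are not independent of that choice. IFNL1 fell in si-FOXA1 (-1.77, SE 0.61, adjusted p = 0.0158) and si-BRG1 (-3.38, SE 0.77, adjusted p = 0.00352) at 0 h and in the si-control hormone response (-1.94, SE 0.67, adjusted p = 0.0296). Without si-control 0 h replicate 1 it did not pass in any of the 3 (-0.88, adjusted p = 0.335, in si-FOXA1, -2.45, adjusted p = 0.0742, in si-BRG1, and -1.01, adjusted p = 0.404, in the si-control hormone response). Its fragments were 6 and 7 in si-FOXA1, 6 and 13 in si-CBX3 and 3 and 1 in si-BRG1 at 0 h, against 31 and 10 in si-control. IFNB1, a type I interferon, was not tested and was singled out after its values were seen. It had 3 and 5 fragments in si-FOXA1, 3 and 6 in si-CBX3 and 6 and 7 in si-BRG1 at 0 h, against 32 and 6 in si-control. Both genes were highest in si-control 0 h replicate 1, the library in which the members were highest; the 95% exact Poisson interval of its 32 IFNB1 fragments was 21.9 to 45.2, against 2.20 to 13.1 for the 6 of replicate 2 (counting error only). At 6 h IFNB1 had 0 to 4 fragments in every library. IFNA1, IFNG and IFNK had 0 fragments in all 16 libraries, which allows up to 3 in each. The part of interferon transcripts in the members' levels was not tested.

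The shares of all genes tested that fell and rose at 6 h were 34.5% and 40.1% in si-FOXA1, 24.4% and 24.7% in si-CBX3 and 17.8% and 19.6% in si-BRG1, and the list counts that follow stand beside these. Of the 9 receptor and kinase genes, 4 fell and 2 rose in si-FOXA1, 4 and 2 in si-CBX3 and 2 and 2 in si-BRG1 at 6 h, and the medians lay between -0.22 and -0.14. IFNAR1, a chain of the type I receptor, fell in si-FOXA1, with -0.47 (SE 0.12, adjusted p = 0.00159) at 6 h and -1.01 (SE 0.12, adjusted p = 6.93e-07) at 0 h, and IFNAR2 was not called (0.15 and 0.13). JAK1 fell in si-FOXA1 at 6 h (-0.49) and was not called at 0 h (-0.04), and TYK2 rose at both (1.03 and 0.88). JAK2, which serves the interferon gamma receptor and cytokine receptors, rose with hormone under each siRNA, by 2.01 in si-FOXA1, 1.93 in si-CBX3, 2.09 in si-BRG1 and 1.83 in si-control.

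Of the 7 transcription factor genes 2 fell and 3 rose in si-FOXA1, 4 and 0 in si-CBX3 and 5 and 1 in si-BRG1 at 6 h, shares in si-FOXA1 near those of all genes. IRF1, an activator of interferon-stimulated promoters, rose in si-FOXA1 and fell in the other two, with 0.91 in si-FOXA1, -1.39 in si-CBX3 and -1.16 in si-BRG1, all called. STAT3, a factor of other cytokines, rose in si-FOXA1 (0.20).

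Of the 8 sensor and adaptor genes tested, 6 fell in si-FOXA1, 4 in si-CBX3 and 6 in si-BRG1 at 6 h, and 1, 1 and 0 rose. RIGI, the cytosolic sensor of 5′ triphosphate RNA, was at 9.77 and 8.21 CPM in si-FOXA1, 42.0 and 43.0 CPM in si-CBX3 and 32.5 and 30.3 CPM in si-BRG1 at 6 h, against 75.5 and 68.7 CPM in si-control (adjusted p = 1.59e-10 in si-FOXA1 over si-control). TLR3, the endosomal sensor of double-stranded RNA, changed by -2.99 in si-FOXA1, -2.18 in si-CBX3 and -1.69 in si-BRG1. STING1, the adaptor of cytosolic DNA sensing, fell in all 3 (-1.14, -0.43 and -0.75) and rose with hormone under each siRNA, by 2.17 in si-FOXA1 and 0.70 in si-control.

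Among 7 inhibitors of the pathway, 3 fell and 2 rose in si-FOXA1, 5 and 1 in si-CBX3 and 4 and 1 in si-BRG1 at 6 h. CISH and SOCS3 restrain cytokine receptors. CISH fell in all 3, with -0.96 in si-FOXA1, -0.78 in si-CBX3 and -0.99 in si-BRG1, and SOCS3 rose in si-FOXA1 (1.17) and fell in si-CBX3 (-0.93) and si-BRG1 (-1.24). Of 38 further interferon-stimulated genes tested, 29 fell in si-FOXA1, 23 in si-CBX3 and 31 in si-BRG1 at 6 h, and 0, 2 and 0 rose; at 0 h 33, 28 and 32 fell and 1, 3 and 0 rose. Their medians at 6 h were -0.74, -0.52 and -0.75. Among them the ligase gene TRIM25 changed by -0.30, -1.01 and -0.41, and the GTPase gene GBP2 by -2.46, -1.04 and -1.31.

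The cells without siRNA were quantified per transcript by another route, as RPKM, with 1 library per time and no test. Of the 41 members 40 were listed, 20 higher and 20 lower at 6 h than at 0 h, with a median log2 ratio of 0.0021 on the log2(RPKM + 1) scale beside 0.04 over 17398 genes. TRIM22 was at 5.86 RPKM at 6 h and 0.552 RPKM at 0 h, the only member to change 2-fold or more on that scale (5.87% of all genes rose and 1.91% fell by as much). HERC5 was at 0.220 and 0.0702 RPKM, IFIT2 at 0.0390 and 0.277 RPKM, and OASL at 0.118 and 0.568 RPKM, at 6 h and 0 h. These lay on the side of their calls under siRNA, as did MX2 (0.322 RPKM at 6 h and 0.348 RPKM at 0 h), while STAT2 lay on the other, at 19.8 RPKM at 6 h and 17.9 RPKM at 0 h.

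The members ranked low in these cells. IFIT1 was at 0.255 RPKM at 6 h and 0.475 RPKM at 0 h, the 26.0th percentile of genes per length at 0 h. In the si-control libraries it lay at the 96.5th to 99.3rd percentile. Over the members, the median percentile was 34.7 at 6 h and 31.6 at 0 h without siRNA, beside 46.0 and 44.0 in si-FOXA1 at 6 h and 77.2 and 75.7 in si-control at 6 h. BST2 was high in both kinds of file; without siRNA it was at 53.4 RPKM at 6 h, the 94.0th percentile, and 69.7 RPKM at 0 h, the 96.5th. The 2 kinds of file were made by different quantification, so siRNA transfection and processing cannot be told apart in this difference.

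BRG1 peaks were absent from the authors' lists near these genes. At 30 min 0 of 41 members had a peak within 5 kb of the 5′ end (10.3% of the genes tested did), and at 0 min 0 of 41 (1.89% of the genes tested). Within 20 kb, 1 peak at 30 min lay within the annotated span of PSMB9 (chromosome 6, 32820333 to 32822436 in hg19), 7853 bases from the 5′ end of PSMB8 and 8420 bases from that of PSMB9, with an authors' score of 57.45, at the 25.2nd percentile of the 6180 peaks. By RefSeq on GRCh38, the promoter windows of PSMB8 (32844630 to 32844929) and PSMB9 (32853942 to 32854241) lie apart, while their annotated hg19 spans overlap. The RefSeq start of PSMB9 thus lies inside its annotated span, as the peak does, and its distance from the peak was not measured. The counts of 0 therefore hold for the outermost annotated ends only. The lists come from 1 library each, with 6180 peaks at 30 min and 2288 at 0 min.

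Members were also counted by whether the promoter window held the ISRE core. In si-FOXA1 over si-control at 6 h, 20 of 20 with the core and 12 of 13 without it fell, with medians of -2.59 and -2.44. In si-CBX3 the counts were 17 of 20 and 11 of 13, with medians of -1.33 and -1.37, and in si-BRG1 20 of 20 and 12 of 13, with medians of -1.88 and -1.38. The comparison has no test, and 8 members had no promoter in the table.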

How the data were processed

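T47D RNA was sequenced in 16 siRNA libraries with a stranded kit. The deposited counts are fragments per gene that the authors counted with featureCounts 1.4.6-p2 on GENCODE 19 and hg19, per the file headers. The headers give 1 thread for si-FOXA1 and si-CBX3 and 8 for si-BRG1 and si-control. STAR and Trimmomatic are listed in the submitters' processing notes. For cells without siRNA the authors deposited RPKM per transcript, with the quantifier not given in the sources used here; these values were summed per gene, and log2 ratios use a pseudocount of 1. For BRG1 the authors deposited peak lists with a score per peak on hg19, and Bowtie 1.0.0 and HOMER are listed in the submitters' processing notes.

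Counts were tested in 1 edgeR 4.0.16 quasi-likelihood fit (R 4.3.3) over all 8 groups with TMM scaling and edgeR's filter on low counts, leaving 18806 genes, 8 residual degrees of freedom and Benjamini-Hochberg adjustment over all genes within each of 16 comparisons. DESeq2 1.42.0 served as an alternative. The script was tested on simulated data. CPM are TMM-scaled, and CPM per kb divide by exonic length. Tables and plots used Python 3.11.15, pandas 2.3.3, numpy 2.4.6 and matplotlib 3.10.9.

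Other alternatives were size factors by RLE, no filter on low counts, a replicate block, only the groups compared, each library left out, other pseudocounts and other peak windows. A peak was near a gene within 5 kb of its outermost annotated 5′ end.

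The members and lists were chosen with earlier results of these data known. Values in every library are given for 17 members fixed by name, for members called against the majority in a knockdown comparison and for the largest change each way in each hormone response; IFITM2, HERC5 and SAMD9 were added after their values were seen. From the lists, genes with the lowest p and the core JAK-STAT genes are named, except an item that is not reported here.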

Additional observations from a re-analysis of the deposited data

Results flagged for a closer look

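The hormone response of 10 members differed between a knockdown and si-control by the test of that difference (edgeR interaction, adjusted p below 0.05), in 12 results. In si-FOXA1 against si-control the difference was 2.03 for TRIM22, 1.28 for SAMD9L, 1.25 for IFIT2, 1.22 for SAMD9 and 1.14 for IFIT3, and -1.22 for GBP1, -0.83 for IFI35 and -0.65 for IFITM2. In si-CBX3 it was 1.09 for GBP1 and 0.73 for IFIT5, and in si-BRG1 1.54 for TRIM22 and -1.19 for IRF7.

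All 12 use the si-control 0 h libraries, whose replicate 1 was higher than replicate 2 for each of the 41 members. Without replicate 1, SAMD9 (0.67), SAMD9L (0.81) and IFIT3 (0.45) in si-FOXA1, IFIT5 in si-CBX3 (0.49) and TRIM22 in si-BRG1 (0.95, adjusted p = 0.0593) no longer passed. Without replicate 2, IFITM2 (-0.51) and IFI35 (-0.48) in si-FOXA1 and IRF7 in si-BRG1 (-0.82, adjusted p = 0.0753) no longer passed. TRIM22 (1.43 and 2.46), IFIT2 (0.81 and 1.62) and GBP1 (-1.53 and -0.94) in si-FOXA1, and GBP1 in si-CBX3 (0.81 and 1.39), passed without either.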

How the results depend on the processing

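The knockdown counts at 6 h and 0 h stayed within 1.5 times of the reported ones under RLE scaling, DESeq2, no filter, the replicate block and only the groups compared. With no filter on low counts, 8 members rose with hormone in si-control, 11 fell and 13 rose in si-CBX3, 20 fell in si-FOXA1, the difference of response was negative for 14 and positive for 2 in si-BRG1, positive for 13 in si-CBX3, and negative for 9 and positive for 8 in si-FOXA1, and 12 were lower and 13 higher in si-CBX3 than in si-BRG1. With only the groups compared, 12 fell and 12 rose in si-CBX3, 16 fell in si-FOXA1, the difference was called for 0 and 0 in si-BRG1 and for 1 in si-CBX3, and 11 were lower and 10 higher in si-CBX3 than in si-BRG1. Leaving the si-control 0 h group out of the fit, chosen after seeing the data, gave 10 that rose in si-CBX3 and 10 lower and 10 higher in si-CBX3 than in si-BRG1. The causes were not tested. The median without siRNA was 0.0059 at a pseudocount of 0.1 and 0.0748 for members at 1 RPKM or more, and 2 members had a BRG1 peak within 20 kb.

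Leaving out each library in turn gave 38 to 39 lower in si-FOXA1, 28 to 34 in si-CBX3 and 40 to 40 in si-BRG1 at 6 h, and 38 to 38, 35 to 40 and 30 to 40 at 0 h, with 0 to 1 higher in si-FOXA1 and si-CBX3 at 0 h. With hormone 4 to 8 fell and 1 to 1 rose in si-FOXA1, 5 to 9 and 3 to 5 in si-CBX3, 13 to 23 and 2 to 2 in si-BRG1, and 7 to 24 and 2 to 13 in si-control. The difference of response was negative for 1 to 18 and positive for 2 to 10 in si-FOXA1, positive for 0 to 17 in si-CBX3, and negative for 0 to 16 and positive for 0 to 3 in si-BRG1. At 0 h 25 to 29 members were lower in si-FOXA1 than in si-BRG1, 24 to 31 lower than in si-CBX3, and 3 to 5 lower and 2 to 6 higher in si-CBX3 than in si-BRG1. Of 3116 single-member values with a library left out 221 turned sign, and 4 of these were called with or without that library, all 4 in the si-control hormone response without 0 h replicate 1, where 16 of 41 turned sign: with each si-control 0 h library out, MX1 lay between -0.70 and 0.58, OAS3 between -0.50 and 0.66, IFITM1 between -0.55 and 0.86 and IFITM3 between -0.42 and 0.56. Of 3648 under the other settings 25 turned sign, 0 of them called. The lone library of a group was then assumed to vary like the other groups.

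With the replicate number as a block, the difference of response was positive for 1 member in si-CBX3 in place of 2, and no other count moved by over 1.5 times. The labels do not say that a number marks a shared batch, and deviations of same-numbered libraries correlated between -0.45 and 0.56 over the 28 pairs of groups (9793 genes). With 2 libraries a group, small differences of members such as IRF9, at 436 fragments in all, were not detectable at this depth.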
